A study of Mus musculus with 7 samples.

Results

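The genes described are 4 of the 54532 genes in the table of counts: the metallothioneins Mt1 and Mt2, the zinc exporter Slc30a1 and the metal sensor Mtf1. They were chosen by name, and all 4 passed the filter on low counts. The tissue was kidney of C57BL/6J mice aged 6 to 8 weeks, male per the series' design text, and total RNA was sequenced. All 7 libraries came from mice given cisplatin at 20 mg/kg through the tail vein. The 4 saline libraries are labelled with cisplatin and saline. In the 3 DXZ libraries the mice also received 40 mg/kg of DXZ into the tail vein, first 30 min ahead of cisplatin and then at intervals of 24 h over 3 days. The labels do not spell out DXZ. Kidneys without cisplatin were not analysed here. Nothing in the labels states that each library is a different animal, so p-values measure only the spread between these samples, which may be technical.

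Metallothioneins are small cytosolic proteins whose cysteines bind zinc, copper and cadmium, and also platinum. MTF-1, encoded by Mtf1, is a zinc finger transcription factor that senses free zinc and binds metal response elements in the promoters of Mt1, Mt2 and Slc30a1. Slc30a1 encodes ZnT1, which moves zinc out of the cell at the plasma membrane. In the kidney, metallothionein is made largely by tubule epithelium and is known for binding cadmium there. Glucocorticoids and inflammatory cytokines are other known inducers of Mt1 and Mt2.

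Mt1 (ENSMUSG00000031765, chromosome 8, 94179082 to 94180327, plus strand, GRCm38) and Mt2 (ENSMUSG00000031762, chromosome 8, 94172664 to 94173568, plus strand) are neighbours with 5513 bases between them. Their coding sequences, from the principal transcripts of GENCODE M21, are shown 5′ to 3′ because the cysteine content is what the family is known for; capitals mark the codons for cysteine.
Mt1: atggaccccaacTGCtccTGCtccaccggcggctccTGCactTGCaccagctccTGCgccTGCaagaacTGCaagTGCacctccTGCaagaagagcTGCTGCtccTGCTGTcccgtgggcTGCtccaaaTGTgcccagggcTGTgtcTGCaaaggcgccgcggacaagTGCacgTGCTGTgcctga
Mt2: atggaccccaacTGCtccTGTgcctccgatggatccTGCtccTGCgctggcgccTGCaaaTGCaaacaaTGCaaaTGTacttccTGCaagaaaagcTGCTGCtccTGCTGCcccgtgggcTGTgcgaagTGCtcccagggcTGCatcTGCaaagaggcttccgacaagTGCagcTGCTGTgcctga
Each holds 61 codons before the stop, of which 20 (32.8%) are cysteine codons, and all 20 lie at the same positions in both genes. The coding sequences were identical at 148 of 186 bases (79.6%). The longest stretch shared by the 2 principal transcripts was 20 bases, so they are related but not near-identical.

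The 250 bases before the RefSeq start of the genes that MTF-1 is known to regulate are shown next, from GRCm38.p6, plus strand; capitals mark the core of the metal response element, searched as TGCACNC or TGCGCNC on both strands. They are shown because 3 of the members are classical targets of the fourth.
Mt1 (chr8:94178839-94179088): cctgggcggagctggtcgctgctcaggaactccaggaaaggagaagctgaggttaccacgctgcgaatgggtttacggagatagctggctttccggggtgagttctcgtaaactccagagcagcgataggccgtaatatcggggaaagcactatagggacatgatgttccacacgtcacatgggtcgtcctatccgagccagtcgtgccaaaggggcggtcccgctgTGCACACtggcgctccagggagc
Mt2 (chr8:94172368-94172617): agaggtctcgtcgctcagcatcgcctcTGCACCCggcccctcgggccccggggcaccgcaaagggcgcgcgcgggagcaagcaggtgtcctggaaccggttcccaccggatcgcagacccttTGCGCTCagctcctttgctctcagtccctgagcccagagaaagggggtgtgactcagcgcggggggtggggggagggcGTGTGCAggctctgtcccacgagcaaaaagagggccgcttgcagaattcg
Slc30a1 (chr1:191906531-191906780): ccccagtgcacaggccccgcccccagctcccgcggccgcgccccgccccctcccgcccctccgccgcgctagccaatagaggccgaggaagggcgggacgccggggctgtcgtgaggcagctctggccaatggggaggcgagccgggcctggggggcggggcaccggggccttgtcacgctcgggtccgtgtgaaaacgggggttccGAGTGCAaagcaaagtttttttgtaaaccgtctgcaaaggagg
All 4 members had a RefSeq promoter window of 300 bases, the 250 before and 50 after the start. In these windows Mt1 held 3 matches, at -23, 3 and 21 from the start, Mt2 held 4, at -223, -128, -50 and 5, and Slc30a1 held 2, at -43 and 31. Mtf1 held 0. Of 32851 such windows in the table, 25.7% held at least 1 match, 7.11% at least 2 and 1.97% at least 3. A match only says that the letters are there. Of the GENCODE transcripts of Mt1, 1 starts 7 bases before the RefSeq start and the others start 122 and 152 bases after it, so the window does not reach the later starts. The GENCODE transcripts of Mt2 start 46 and 242 bases after its RefSeq start, from which the positions above are counted.

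Between 16058157 and 18133736 reads were counted per library, and 15351 genes were tested. By edgeR's quasi-likelihood test 853 genes changed at an adjusted p below 0.05, 498 higher and 355 lower in DXZ, with 3899 at an unadjusted p below 0.05. The median log2 fold change over all tested genes was 0.01. That count was 374, 296, 426 and 4 without saline 1, 2, 3 or 4 and 1574, 1 and 141 without DXZ 1, 2 or 3, so it depended on single libraries. Kidney markers were present, with 24 of the 24 markers of proximal tubule, thick ascending limb, distal convoluted tubule and podocyte tested. DXZ 1 stood apart in its stromal content: summed fibroblast and mural cell markers were 456 CPM in DXZ 1 and 109 and 91.9 CPM in DXZ 2 and 3, against 160 to 361 CPM in saline.

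Metallothionein transcripts were more abundant in the DXZ libraries, most of all Mt1, but no member passed the test across all genes. Mt1 averaged 875 ± 273 CPM (SD, n = 4) in saline and 2904 ± 2139 CPM (SD, n = 3) in DXZ. Mt2 averaged 34.6 ± 13.0 and 62.4 ± 17.6 CPM. Slc30a1 averaged 109 ± 15.4 and 89.2 ± 6.15 CPM, and Mtf1 20.0 ± 1.46 and 21.7 ± 2.03 CPM. CPM are edgeR's library-scaled counts, with TMM normalization of the library sizes. Of the 4 members, edgeR called 0, against 5.56% of all tested genes. In 1 member, Mt1, every DXZ library lay above every saline library, and in 0 members every one lay below, against 12.8% and 11.3% of all tested genes. At an unadjusted p below 0.05 there were 2, Mt1 and Mt2, against 3899 of all 15351 tested genes. DESeq2 called 1 member, Mt1, against 2011 of 27180 genes with a count. By limma-voom 0 members were called, against 842 of 15351 genes. The median log2 fold change of the 4 was 0.49, made up of 3 positive values and 1 negative one.

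**Figure D1:**
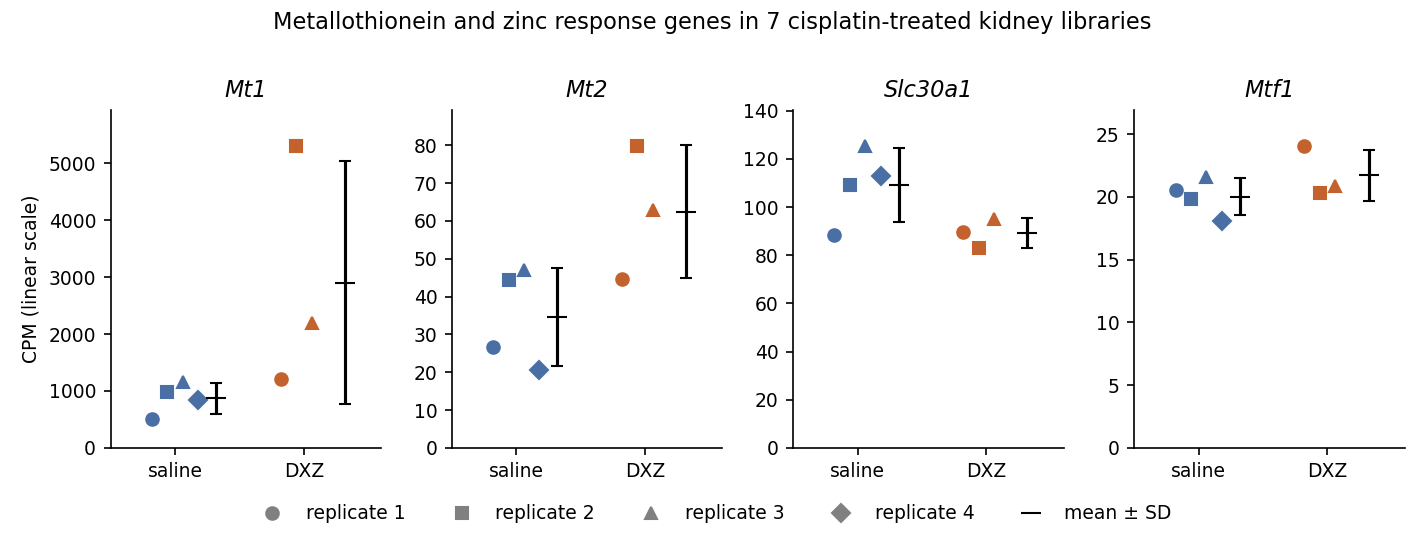
CPM on a linear scale from 0 for each member in the 4 saline and 3 DXZ libraries, with 1 point per library shaped by replicate number and the group mean ± SD in black. The Mt1 points of DXZ (1212 to 5308 CPM) all lie above those of saline (516 to 1159 CPM), while the groups overlap for Mt2, Slc30a1 and Mtf1.

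Mt1 was at 516, 990, 1159 and 837 CPM in saline 1 to 4 and at 1212, 5308 and 2191 CPM in DXZ 1 to 3. The groups did not overlap, as was so for 24.1% of all tested genes in either direction. DXZ 1 lay close to saline 3, however, and DXZ 2 lay far above every other library. The log2 fold change was 1.73 (SE 0.48, approximate 95% interval 0.62 to 2.84), a 3.32-fold difference, with an unadjusted p of 0.00690 and an edgeR adjusted p of 0.0731. Reads of Mt1 alone made up 0.0496% to 0.118% of all counts in saline libraries and 0.132%, 0.517% and 0.212% in DXZ 1 to 3.

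The size of the Mt1 difference depended on DXZ 2 and its call on DXZ 1. Without DXZ 2 the log2 fold change was 0.95 (edgeR adjusted p = 0.205). Without DXZ 1 it was 2.10 and passed (edgeR adjusted p = 0.0277). Across all 19 alternatives its adjusted p ran from 0.0258 to 0.419 and its direction did not change. The alternatives in which Mt1 passed were DESeq2 (adjusted p = 0.0298), edgeR with no filter (0.0371), edgeR without DXZ 1, and edgeR without saline 1 and DXZ 1 (0.0258).

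Mt1 also varied more among libraries of 1 group than most genes. On the log2 CPM scale its SD was 0.51 in saline and 1.07 in DXZ, and 93.9% and 98.1% of the 9631 genes averaging 10 CPM or more had a smaller SD. The highest DXZ library held 4.38 times the Mt1 level of the lowest, and in saline that ratio was 2.25. Mt2 was variable in both groups as well, with SDs of 0.58 and 0.42, larger than those of 95.4% and 87.8% of the genes. Slc30a1 (0.21 and 0.10) and Mtf1 (0.11 and 0.13) varied much less.

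Mt2 was at 26.6, 44.4, 46.9 and 20.6 CPM in saline 1 to 4 and at 44.6, 79.8 and 62.8 CPM in DXZ 1 to 3. DXZ 1 lay inside the saline range, between saline 2 and saline 3, and DXZ 2 and 3 lay above it. The log2 fold change was 0.85 (SE 0.31, approximate 95% interval 0.13 to 1.57), with an unadjusted p of 0.0256 and an edgeR adjusted p of 0.137. As for Mt1, the highest library was DXZ 2 and the next was DXZ 3. Mt2 did not pass under any of the 19 alternatives, where its adjusted p was 0.0601 or more.

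The Mt2 counts carry a limit of annotation. The antisense gene Gm45774 (chromosome 8, 94170748 to 94173412, minus strand) covers 432 of the 588 exon bases of Mt2 (73.5%) and leaves 156 free. The strand setting of the authors' counting, and its handling of reads that fall in 2 genes, is not stated by the labels or headers, so reads of Mt2 and Gm45774 cannot be told apart. Gm45774 itself held 3 to 9 counts in saline libraries and 13, 30 and 26 in DXZ 1 to 3. Antisense genes cover 8.9% of the exon bases of Slc30a1 (1700034H15Rik), and the minus-strand gene 1110065P20Rik covers 8.1% of those of Mtf1. In that annotation no gene overlaps Mt1.

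Per length, the order of the members by counted reads was Mt1, Mt2, Slc30a1 and Mtf1 in all 7 libraries. The deposited FPKM averaged 699 ± 218 (SD, n = 4) in saline and 2325 ± 1734 (SD, n = 3) in DXZ for Mt1, and 58.6 ± 21.9 and 106 ± 31.0 for Mt2. Slc30a1 averaged 20.7 ± 2.92 and 16.9 ± 1.11 FPKM, and Mtf1 2.24 ± 0.157 and 2.42 ± 0.193. No library of one member reached the range of the next member in that order. By FPKM Mt1 ranked between 31 and 93 among all genes in saline libraries, and 26, 9 and 20 in DXZ 1 to 3. Mt2 ranked between 418 and 1596.

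Mt1 supplied nearly all of the metallothionein reads that were counted. Any Mt2 reads lost to the overlap with Gm45774 would raise the Mt1 share, and how many were lost is not known. The Mt1 share of Mt1 plus Mt2 counts was 95.1%, 95.7%, 96.1% and 97.6% for saline 1 to 4, against 96.5%, 98.5% and 97.2% for DXZ 1 to 3. The groups overlapped. The difference of 1.27 percentage points, beside SDs of 1.07 and 1.05, did not pass (exact permutation test over 35 assignments, two-sided, p = 0.229; the smallest p that this design allows is 0.0571). In FPKM the ratio of Mt1 to Mt2 ran from 9.15 to 19.2 in saline and from 12.8 to 31.4 in DXZ. The table's length of Mt1, 1246 bases, spans its introns, while the principal transcript has 549 bases; over principal transcript lengths the ratio ran from 18.0 to 37.9 in saline and from 25.3 to 61.9 in DXZ. With Mt2 reads set against the 156 bases free of Gm45774, it ran from 5.51 to 11.6 and from 7.72 to 18.9. Mt1 exceeded Mt2 on each of these scales. The last scale is not a bound, because the counting rule is not known. If reads touching both genes were dropped, only reads wholly inside the free bases would count. The usable length would then be below 156 bases.

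Slc30a1 (ENSMUSG00000037434, chromosome 1, 191906767 to 191913247, plus strand), the exporter, had a lower mean in DXZ, unlike the metallothioneins. It was at 88.3, 109, 125 and 113 CPM in saline 1 to 4 and at 89.6, 82.8 and 95.1 CPM in DXZ 1 to 3. Saline 1 lay within the DXZ range, and the other saline libraries lay above it. The log2 fold change was -0.29 (SE 0.13, approximate 95% interval -0.58 to 0.01; edgeR adjusted p = 0.204). Without saline 1 it was -0.38 (edgeR adjusted p = 0.101). DXZ 2, the library with the most Mt1, had the least Slc30a1, but within saline the lowest and highest libraries, saline 1 and saline 3, were the same for both genes. Slc30a1 did not pass under any of the 19 alternatives, with adjusted p-values of 0.0902 or more.

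Mtf1 (ENSMUSG00000028890, chromosome 4, 124802104 to 124849800, plus strand), the metal sensor, was at 20.6, 19.8, 21.6 and 18.1 CPM in saline 1 to 4 and at 24.1, 20.3 and 20.8 CPM in DXZ 1 to 3. DXZ 2 and 3 lay within the saline range, and DXZ 1 lay above it. The log2 fold change was 0.12 (SE 0.11, approximate 95% interval -0.14 to 0.38; edgeR adjusted p = 0.553). The interval leaves out a change of the size measured for Mt1. The fold was 0.04 without DXZ 1 and 0.07 without saline 4, and Mtf1 did not pass under any of the 19 alternatives.

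**Figure D2:**
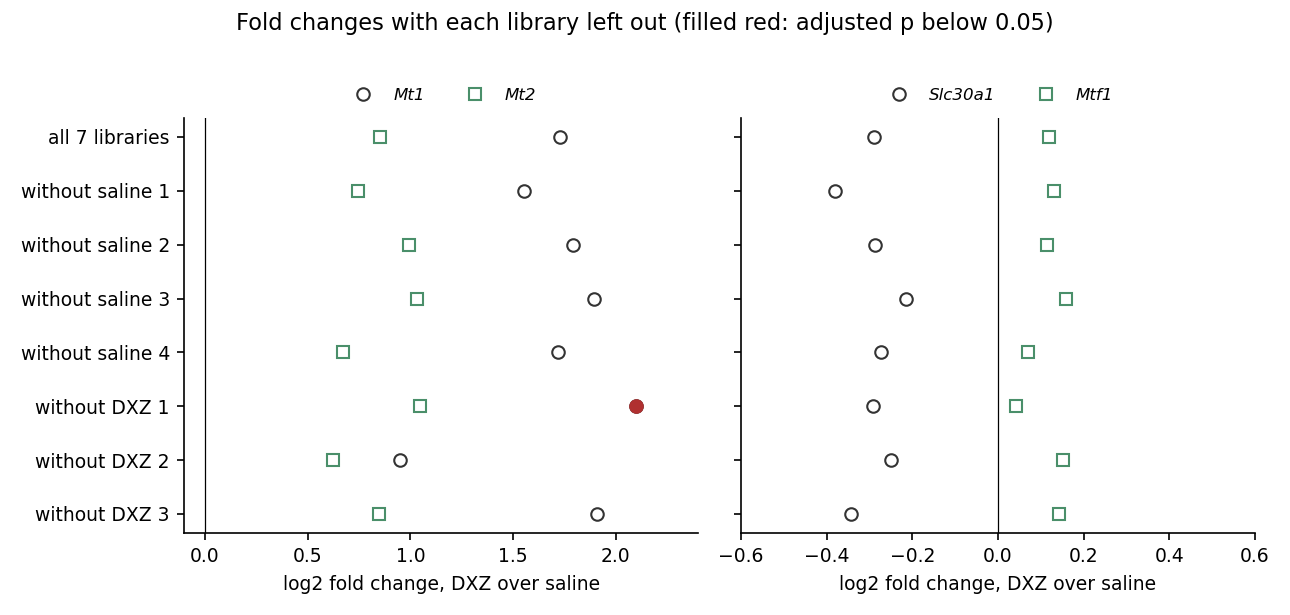
Log2 fold change of DXZ over saline from edgeR's quasi-likelihood fit with all 7 libraries and with each library left out in turn, for Mt1 and Mt2 (left) and Slc30a1 and Mtf1 (right); a filled red point passed an adjusted p of 0.05. Mt1 drops to 0.95 without DXZ 2 and passes, at 2.10, without DXZ 1, and no member changes sign.

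Across libraries the Mt1 level broadly rose with the summed markers of tubule injury and ran opposite to those of proximal tubule. Markers of the other tubule segments did not all follow it. The 10 proximal tubule markers summed to 28645, 12479, 6561 and 7614 CPM for saline 1 to 4, against 6434, 3389 and 5231 CPM for DXZ 1 to 3; 5 of the 10 fell and 0 rose by edgeR's test, against 2.31% and 3.24% of all tested genes. The 8 tubule injury markers summed to 8292, 19070, 23778 and 21781 CPM for saline 1 to 4, against 22063, 36492 and 27271 CPM for DXZ 1 to 3; 3 rose and 0 fell, against 3.24% and 2.31% of all tested genes. DXZ 2 had the most Mt1, the most injury marker RNA and the least proximal tubule marker RNA, and saline 1 was at the other end of all 3. Distal convoluted tubule markers did not run in this order: they were lowest among saline libraries in saline 1 (283 CPM) and highest among DXZ libraries in DXZ 2 (314 CPM), and 2 of 4 fell. Of thick ascending limb markers 1 of 5 fell, and of principal cell markers 1 of 4 tested rose. In bulk RNA, fewer cells of a type and less RNA per cell cannot be told apart, and the part of these markers in the Mt1 difference was not tested.

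**Figure D3:**
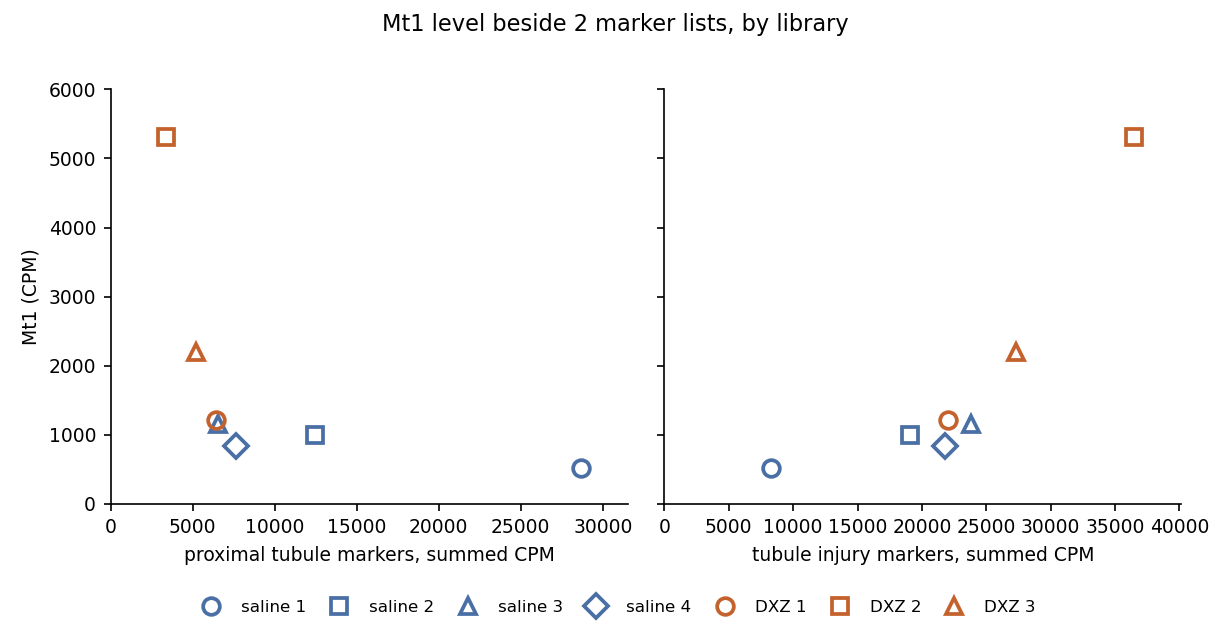
Mt1 CPM against the summed CPM of 10 proximal tubule markers (left) and 8 tubule injury markers (right), with 1 point per library, blue for saline and orange for DXZ. DXZ 2 sits highest at 5308 CPM, with the lowest proximal tubule sum and the highest injury sum, and saline 1 sits lowest at 516 CPM.

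Of the marker sums for other cells, those of intercalated cells and adipocytes were also highest in DXZ 2. The 5 intercalated cell markers summed to 162 to 206 CPM in the saline libraries, and to 184, 252 and 214 CPM in DXZ 1 to 3. The 5 adipocyte markers ranged over 5.41 to 68.0 CPM for saline, and reached 21.9, 78.5 and 48.5 CPM in DXZ 1 to 3. Macrophage markers were highest in DXZ 1 (316 CPM, with 97.7 to 194 CPM for saline). Hepatocyte markers, from a cell type rich in metallothionein, were highest in DXZ 3 (420 CPM, with 228 to 338 CPM for saline), and so were urothelial markers (55.4 CPM, with 1.43 to 30.4 CPM for saline). The adrenal cortex markers Cyp11b1 and Cyp11b2 were at 0 counts in all 7 libraries. The part of these cells in the Mt1 difference was not tested.

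The remaining metallothioneins were scarce. Mt3, the isoform best known from brain, was at 0.06, 0.18, 0.79 and 0.24 CPM in saline 1 to 4 and at 0.68, 1.81 and 0.35 CPM in DXZ 1 to 3. The groups overlapped, DXZ 2 was the highest library here too, and the log2 fold change was 1.57 (edgeR adjusted p = 0.271). With 1 library left out it was 0.69 at the lowest, but without saline 3 Mt3 did not pass the filter and was not tested. Mt4, the isoform of stratified epithelium, had 2 counts in all and was not tested.

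Zinc exporters other than Slc30a1, which load vesicles and organelles or move zinc outwards, gave 0 calls among 6 tested of 9 listed, against 5.56% of all genes. At an unadjusted p below 0.05 there were 3 of the 6, against 3899 of all 15351. DESeq2 and limma-voom also called 0, against 2011 of 27180 and 842 of 15351 genes. The median log2 fold change of the 6 was -0.05, with 3 positive and 3 negative. Slc30a9, which carries zinc out of mitochondria, averaged 226 ± 25.6 CPM (SD, n = 4) in saline and 182 ± 7.82 CPM (SD, n = 3) in DXZ (log2 difference -0.31, edgeR adjusted p = 0.131). Slc30a5, a transporter of the early secretory pathway, averaged 98.0 ± 9.80 and 81.1 ± 2.65 CPM (-0.27, edgeR adjusted p = 0.136). Slc30a3, Slc30a8 and Slc30a10 had 3, 14 and 14 counts in all and were not tested.

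Zinc importers, the family that brings zinc into the cytosol, held the only zinc transporter genes past the test. Of 12 tested among 14 listed, 1 rose (3.24% of all tested genes rose) and 2 fell (2.31% of all fell), with a median log2 fold change of 0.03. At an unadjusted p below 0.05 there were 5 of the 12, against 3899 of all 15351. Slc39a5, an importer of the basolateral membrane of epithelia, was at 44.4, 47.2, 38.3 and 53.5 CPM in saline 1 to 4 and at 23.2, 16.1 and 28.6 CPM in DXZ 1 to 3. It fell by 1.02 on the log2 scale (SE 0.20, edgeR adjusted p = 0.0338). Slc39a8, which also carries manganese, was at 52.2, 53.5, 48.6 and 63.2 CPM in saline 1 to 4 and at 32.9, 23.7 and 35.4 CPM in DXZ 1 to 3. It fell as well (-0.82, SE 0.16, edgeR adjusted p = 0.0314). Both were lowest in DXZ 2, where Mt1 was highest. In neither did the groups overlap, as was so for 11.3% of all tested genes in the lower direction.

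Slc39a6, an importer studied in epithelial migration, was at 10.7, 10.3, 10.4 and 9.99 CPM in saline 1 to 4 and at 20.5, 17.8 and 13.0 CPM in DXZ 1 to 3. It rose (log2 fold change 0.72, SE 0.16, edgeR adjusted p = 0.0456). Its groups did not overlap, as was so for 12.8% of all tested genes in the higher direction. By DESeq2 1 importer also rose and 2 fell, against 1105 and 906 of 27180 genes with a count. By limma-voom 0 were called higher and 2 lower, against 531 and 311 of 15351, with Slc39a6 at an adjusted p of 0.0640. Leaving out single libraries ended each of these calls. Slc39a5 lost its call without saline 1, saline 2, saline 4 or DXZ 2 (edgeR adjusted p between 0.0579 and 0.0968). Slc39a8 lost it without any of these or DXZ 3 (between 0.0525 and 0.0875), and Slc39a6 lost it without any library except DXZ 3 (between 0.0590 and 0.126). Their log2 fold changes stayed between -1.23 and -0.83, between -0.95 and -0.68, and between 0.57 and 0.88 when 1 library was left out. Slc39a1, a plasma membrane importer, averaged 130 ± 9.32 and 155 ± 8.21 CPM (0.26, edgeR adjusted p = 0.135), and Slc39a9 averaged 66.5 ± 3.97 and 58.0 ± 2.55 CPM (-0.20, edgeR adjusted p = 0.192). Slc39a2 and Slc39a12 had 15 and 2 counts in all and were not tested.

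**Figure D4:**
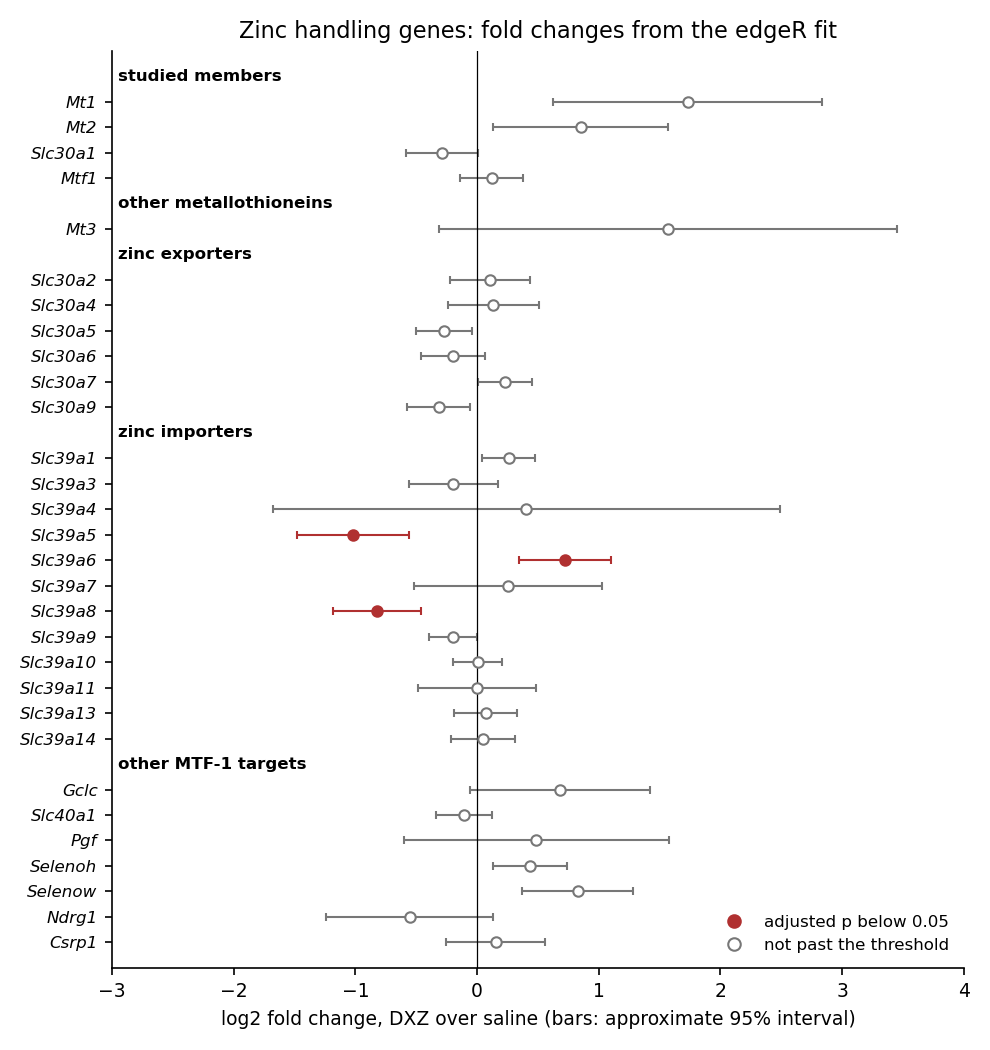
Log2 fold changes of DXZ over saline with approximate 95% intervals for the 4 members, Mt3, 6 zinc exporters, 12 zinc importers and 7 further MTF-1 targets, red where the edgeR adjusted p was below 0.05. Slc39a5 and Slc39a8 lie below 0 and Slc39a6 above it in red, and the members lie between -0.29 (Slc30a1) and 1.73 (Mt1) in grey.

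Other genes known as MTF-1 targets gave 0 calls of 7 by edgeR, against 5.56% of all tested genes. At an unadjusted p below 0.05 there were 2 of 7, against 3899 of all 15351. DESeq2 called 1 of the 7, against 2011 of 27180 genes with a count, and limma-voom 0, against 842 of 15351. The median log2 fold change of the 7 was 0.43, with 5 positive and 2 negative, and it was 0.21 with the replicate block and 0.22 without saline 4. These 2 alternatives are not independent, because the block also leaves saline 4, the only library of its number, out of the comparison. Selenow, a small selenoprotein, was at 45.2 to 77.7 CPM in saline and at 94.3 CPM or more in DXZ (log2 difference 0.83, SE 0.20, edgeR adjusted p = 0.0521). Selenoh, a nuclear selenoprotein, averaged 13.9 ± 1.71 and 18.8 ± 1.22 CPM (0.43, edgeR adjusted p = 0.0891). The groups did not overlap for either, as was so for 12.8% of all tested genes in the higher direction, and neither passed edgeR's test. Selenow is the gene that DESeq2 called (adjusted p = 0.00448), and it also passed in edgeR with no filter (adjusted p = 0.0280). Without DXZ 1, edgeR called 1 other gene of the 7 higher, against 792 of 15610 tested genes called higher. With saline 1 and DXZ 1 both left out it also called 1 other gene higher, against 632 of 15397 called higher.

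The genes whose levels ran most like the mean of Mt1 and Mt2 were sought among 12676 genes by Pearson correlation of log2 CPM over the 7 libraries, as a description. They included Cinp with 0.991, and Psma1, a proteasome subunit, Ccdc58 and Rps12, a ribosomal protein, with 0.990 each. The genes most like Slc30a1 were Zc3h12b, Znrf3, Ppat, Ccdc28b and Grk4 (0.968 to 0.992), and those most like Mtf1 were Arvcf, Synj2, Rbm15b, Fubp1 and Stk24 (0.942 to 0.951). The points share library, depth and group, and none of the genes named here passed the test between groups.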

How the data were processed

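Bulk RNA-seq counts of 7 kidney libraries were used, 4 labelled saline and 3 labelled DXZ. The deposited counts are whole reads per gene with no normalization, per the file headers and the values. The deposited FPKM values are the same counts over gene length, with a single constant for each library, and are not a second measurement. HISAT2, StringTie and mm9 are named in the submitters' processing notes without roles. The gene coordinates are not mm9: of 54409 gene identifiers shared with GENCODE M21 (GRCm38), 98.3% had the same start and end, and all 4 members did. For the counting program and its strand setting, nothing is given in the sources used here.

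In R 4.3.3, edgeR 4.0.16 was used: filterByExpr, TMM scaling and a quasi-likelihood F test of DXZ against saline with Benjamini-Hochberg adjustment over 15351 genes, at an adjusted p below 0.05. Each SE is the log2 difference over the root of F, and the 95% intervals built from it are approximate. The scripts were tested on simulated data. There the edgeR test recovered 46.4% of 2-fold and 79.6% of 4-fold changes, with 6.4% of calls false. A gene without a call may therefore still have changed. Alternatives included limma 3.58.1 and DESeq2 1.42.0. Exact tests used SciPy 1.17.1.

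The members, gene lists, tests and alternatives were chosen with earlier results of these data known. Named genes were the 4 members, from each of 7 pathway lists every gene past the threshold with the 2 of lowest p among the others and those not tested, and the 5 genes most like the mean of Mt1 and Mt2, Slc30a1 and Mtf1 in Pearson correlation of log2 of CPM plus 0.5, among genes averaging 1 CPM or more; 1 gene this rule names is not reported here. The 17 marker lists were summed by library, and their genes are counted from the same fit. Promoters are from RefSeq and coding sequences from GENCODE.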

Additional observations from a re-analysis of the deposited data

How the results depend on the processing

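The direction of Mt1, Mt2, Slc30a1 and Mtf1 held in all 19 alternatives for each, and that of the Mt1 share in all 9 of its own. The log2 fold change of Mt1 passed at 1.73 with no filter and by DESeq2 (also 1.73), and at 1.91 without saline 1 and DXZ 1; with 1 library left out it ran from 0.95 to 2.10. With 1 library left out, Mt2 ran from 0.62 to 1.04, Slc30a1 from -0.38 to -0.21, Mtf1 from 0.04 to 0.16 and the Mt1 share difference from 0.704 to 1.76 percentage points. With the replicate block Mt1 was at 1.52 (edgeR adjusted p = 0.0984) and Mt2 at 0.67 (0.0787); the block changed no member's call, ended those of Slc39a5, Slc39a6, Slc39a8 and Slc31a1 (adjusted p between 0.0933 and 0.136) and moved the count of changed genes to 85. That count was 853 with all libraries, 2011 by DESeq2, 1332 without saline 1 and DXZ 1, 145 by limma on unfiltered FPKM, 3 by edgeR's glmTreat against a minimum fold of 1.5, and 1 to 1574 with 1 library left out. The pairing was by number alone: deviations from group means correlated at 0.258, -0.0883 and 0.226 for numbers 1, 2 and 3, and not every library correlated best with its own number. The cause of these moves was not tested, apart from the glmTreat fit, which by construction asks for a larger change. Mt4, with 2 counts in all, could not be tested at this depth.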

Other observations

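Copper handling genes, whose metal also binds metallothionein, gave 1 lower and 0 higher calls among 10 tested by edgeR, against 2.31% and 3.24% of all tested genes. DESeq2 called 1 lower and 1 higher, against 906 and 1105 of 27180 genes with a count. By limma-voom 1 was called lower and 0 higher, against 311 and 531 of 15351. Slc31a1, the high-affinity copper importer that has also been linked to cisplatin uptake, was at 205, 189, 187 and 221 CPM in saline 1 to 4 and at 141, 136 and 153 CPM in DXZ 1 to 3. It fell by 0.49 on the log2 scale (SE 0.10, edgeR adjusted p = 0.0390), and lost its call without any single library except DXZ 1 (edgeR adjusted p between 0.0590 and 0.114). Atox1, a cytosolic copper chaperone, averaged 173 ± 35.5 CPM (SD, n = 4) in saline and 264 ± 41.4 CPM (SD, n = 3) in DXZ (0.61, edgeR adjusted p = 0.0933). Its groups did not overlap, as was so for 12.8% of all tested genes in the higher direction. Atox1 passed by DESeq2 (adjusted p = 0.0380) and in edgeR without saline 1 and DXZ 1 (adjusted p = 0.0283). Slc31a2 averaged 25.6 ± 5.21 and 30.9 ± 3.55 CPM (0.27, edgeR adjusted p = 0.375). The median over the 10 genes was -0.01.

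Genes known to respond to glucocorticoids, which also induce Mt1 and Mt2, gave 0 calls of 8 by edgeR, against 5.56% of all tested genes, with 1 at an unadjusted p below 0.05 (3899 of all 15351) and a median log2 fold change of -0.11. Klf9 averaged 164 ± 31.9 CPM (SD, n = 4) in saline and 117 ± 15.8 CPM (SD, n = 3) in DXZ (-0.49, edgeR adjusted p = 0.123), and Map3k6 23.0 ± 5.19 and 30.8 ± 3.20 CPM (0.42, edgeR adjusted p = 0.197). Genes of the IL-6 and STAT3 response gave 0 calls of 9 by edgeR, against the same 5.56%, with 2 at an unadjusted p below 0.05 and a median of 0.18. Junb averaged 74.3 ± 11.4 and 109 ± 32.5 CPM (0.56, edgeR adjusted p = 0.141), and Cebpd 55.0 ± 19.9 and 95.9 ± 35.4 CPM (0.80, edgeR adjusted p = 0.184). DESeq2 and limma-voom also called 0 in both lists, against 2011 of 27180 and 842 of 15351 genes. Without DXZ 1, edgeR called 1 glucocorticoid response gene higher and 1 gene of the IL-6 and STAT3 list lower. It then called 792 higher and 782 lower of 15610 tested genes.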
